A study of Homo sapiens with 6 samples.

Results

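The genes described here are 10 known targets of the transcription factor p53, chosen by symbol, and they were followed in A2780 cells with and without a hairpin against USP39. Of the 10 listed genes, CDKN1A, GDF15, BTG2, ZMAT3, SESN1, RRM2B, TP53I3 and TP53INP1 were analysed, which is 8 of the 16571 gene symbols read here. MDM2 and FAS were not analysed here. A2780 is an established human ovarian cancer cell line, which the labels call serous. RNA-seq was performed on 3 libraries with pGIPZ-NC, the control for the lentiviral hairpin vector, and on 3 libraries with shUSP39, a hairpin against the spliceosome protein USP39. Both groups were infected with lentivirus, and per the study's methods stable lines were selected with puromycin. The labels do not say which of the study's hairpins the shUSP39 libraries carried. The knockdown was not checked in these libraries, because USP39 was not analysed here. The paper reports western blots of USP39 knockdown in its ovarian cancer lines.

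p53 is held at a low level in unstressed cells by the ubiquitin ligase MDM2, which is itself a p53 target, so that the pair forms a feedback loop. DNA damage and other stresses stabilise p53, which then binds pairs of short DNA repeats near its target genes and raises their transcription. The targets stop the cell cycle, supply nucleotides for repair, adjust metabolism or promote cell death. The cyclin-dependent kinase inhibitor p21, the product of CDKN1A, also lowers many cell cycle genes through the repressor complex DREAM.

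Sequences that match the p53 site were looked for first, since the genes were listed as known p53 targets. The p53 full site was searched as a pair of adjacent decamers with the C at position 4 and the G at position 7 of each decamer fixed, counted from 1 at the decamer's left end. The search covered 2500 bases on either side of the start of each canonical transcript in GRCh37 (GENCODE release 44), and both strands are covered because the motif is its own reverse complement. With at most 1 mismatch elsewhere, 2 of the 8 genes had a site, ZMAT3 and RRM2B, against 51 of 10194 tested genes (0.500%). ZMAT3 had a site with 0 mismatches, which 6 of the 10194 genes had (0.0589%). With at most 2 mismatches, 5 of the 8 genes had a site, against 360 of the 10194 genes (3.53%). The sites of ZMAT3, CDKN1A, GDF15 and BTG2 are printed on the strand of the gene, with the core of each decamer in capitals, to show how closely they match. The ZMAT3 site has 0 mismatches, and those of CDKN1A, GDF15 and BTG2 have 2 each. These are matches by letters only, and p53 binding to them was not tested.
ZMAT3 (chr3:178787976-178787995, minus strand, intron, 1612 bases after the start): aaaCAAGtccagaCATGcct
CDKN1A (chr6:36644226-36644245, plus strand, 2256 bases before the start): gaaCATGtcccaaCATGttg
GDF15 (chr19:18496118-18496137, plus strand, 840 bases before the start): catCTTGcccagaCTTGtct
BTG2 (chr1:203272770-203272789, plus strand, 1868 bases before the start): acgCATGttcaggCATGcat
The RRM2B site had 1 mismatch and lay in an intron 2112 bases after the start. No match was found in these windows for SESN1, TP53I3 or TP53INP1, which says only that these letters are not there. Since the genes were chosen as known targets, their sites describe them and were not tested.

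**Figure D1:**
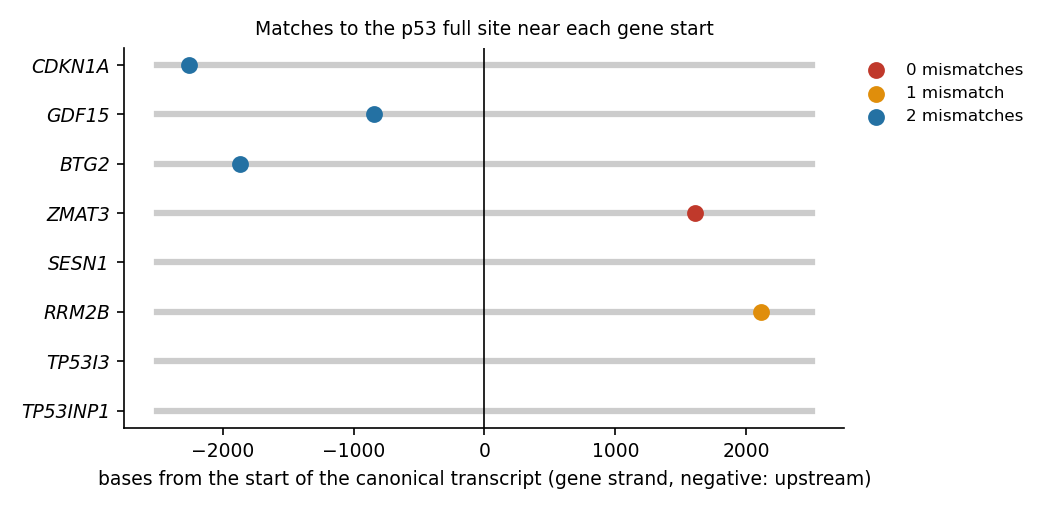
Matches to the p53 full site within 2500 bases of the canonical start of each of the 8 genes. The horizontal axis gives bases from the start along the gene strand, and the colour gives the number of mismatches: ZMAT3 and RRM2B have their match after the start, and CDKN1A, BTG2 and GDF15 have theirs before it.

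The depth of the libraries was between 28294819 and 32939264 counts. The number of genes with a count was between 12662 and 12819 in the pGIPZ-NC libraries and shUSP39 replicate 1, and it was 15446 and 14890 in shUSP39 replicates 2 and 3. The change of each tested gene of the 10 and the number of passing genes in each p53, stress and interferon list were therefore also computed with shUSP39 replicate 1 alone. Levels are given as CPM, a gene's count scaled to the library's TMM-adjusted total, and changes as log2 fold changes of shUSP39 over pGIPZ-NC with the adjusted p of edgeR's quasi-likelihood test over all 10695 genes that passed a filter on low counts. Of the 8 genes, 6 passed this filter. CDKN1A and TP53INP1 did not pass it.

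Among the 6 tested genes, GDF15 and BTG2 rose in shUSP39 and ZMAT3, SESN1, RRM2B and TP53I3 did not pass the test. At an adjusted p under 0.05, 2 of the 6 genes passed, where 33.6% of all tested genes did. Both were higher, against 16.1% of all tested genes called higher, and 1 of them, GDF15, was also beyond 2-fold, against 6.81% of all tested genes in either direction, 4.53% higher and 2.28% lower. None of the 6 was lower at an adjusted p under 0.05 (17.5% of all tested genes) by edgeR, by DESeq2 or by limma-voom, and by edgeR 0 of them were lower at an unadjusted p under 0.05. The median log2 fold change was 0.19 over the 6 genes and 0.01 over all tested genes. In bulk libraries like these, fewer cells that express a gene and less of its RNA in each cell cannot be told apart.

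GDF15 encodes a secreted cytokine of the TGF-beta superfamily that is released by stressed cells. It is found on chromosome 19 (GRCh37, 18496968 to 18499986, plus strand) and its canonical transcript has 2 exons. For replicates 1, 2 and 3, GDF15 had 129, 117 and 83 counts with the control vector and 258, 258 and 239 counts with shUSP39. Every shUSP39 library lay above every pGIPZ-NC library, and the shUSP39 libraries lay close together. Mean levels were 3.53 ± 0.557 CPM with the control vector and 8.19 ± 0.207 CPM with shUSP39 (SD, n = 3 each). This was a 2.31-fold rise (95% interval 1.82 to 2.95), or 1.21 on the log2 scale (SE 0.17), and edgeR's adjusted p was 2.34e-06. Of the 10695 tested genes, 458 had a higher log2 fold change. With shUSP39 replicate 1 alone the log2 fold change was 1.19 (adjusted p 0.000531 by edgeR).

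BTG2 encodes an antiproliferative protein that brings messenger RNA to the CCR4-NOT deadenylase. It is found on chromosome 1 (GRCh37, 203274647 to 203278730, plus strand), and its canonical transcript has 2 exons. For replicates 1, 2 and 3, BTG2 had 726, 744 and 600 counts with the control vector and 1039, 1054 and 954 counts with shUSP39. The groups did not overlap here either, which held for 21.7% of all tested genes with the shUSP39 libraries on the higher side. BTG2 rose from 22.3 ± 0.918 to 33.1 ± 1.20 CPM (SD, n = 3 each), which is 1.48-fold (95% interval 1.32 to 1.66). On the log2 scale the rise was 0.57 (SE 0.08), and edgeR's adjusted p was 3.61e-06. With shUSP39 replicate 1 alone it was 0.54 (adjusted p 0.00108 by edgeR).

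**Figure D2:**
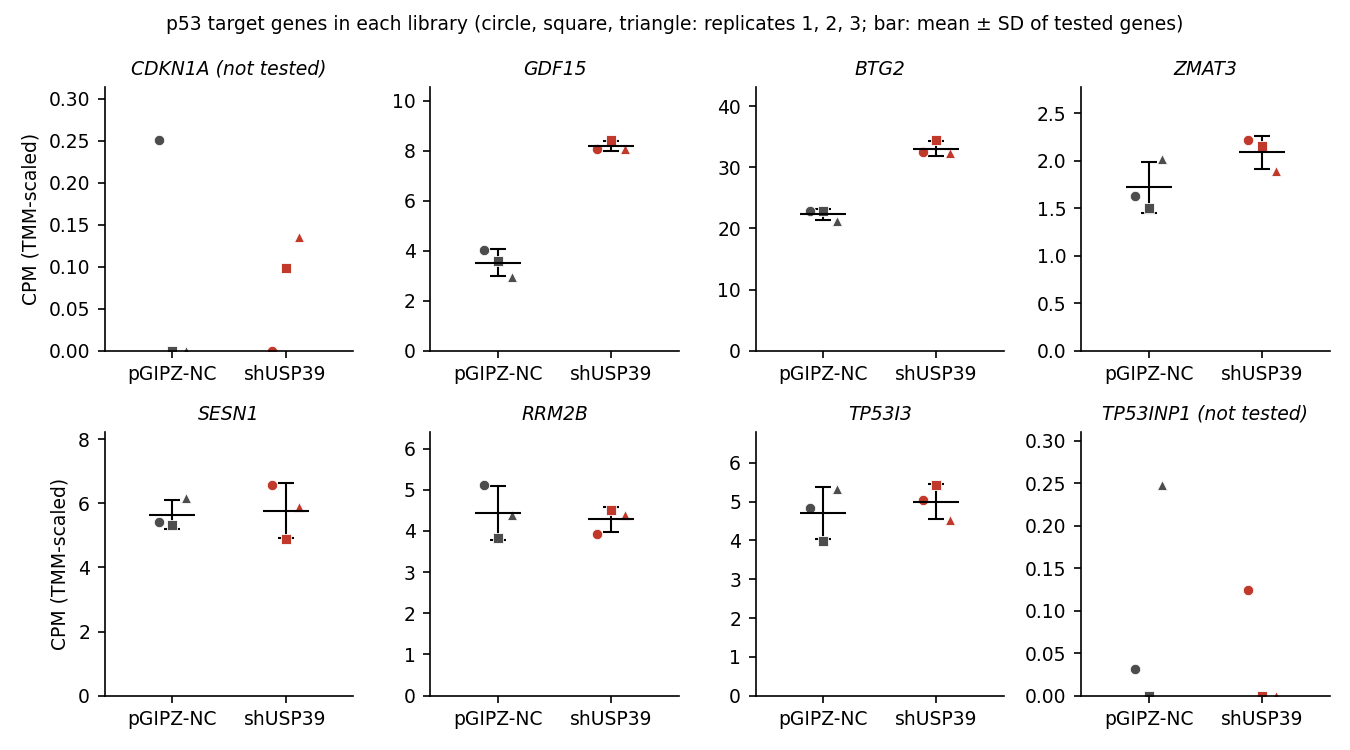
Level of each of the 8 analysed p53 target genes in CPM (vertical axis, from 0) in the 3 pGIPZ-NC and 3 shUSP39 libraries. Symbols are libraries and bars are the mean ± SD of tested genes: GDF15 and BTG2 separate the groups, and the other genes overlap.

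ZMAT3 encodes a zinc finger protein that binds RNA. It is found on chromosome 3 (GRCh37, 178735011 to 178789597, minus strand), with 6 exons in its canonical transcript. Its counts were 52, 49 and 57 in pGIPZ-NC and 71, 66 and 56 in shUSP39 for replicates 1, 2 and 3. The groups overlapped through shUSP39 replicate 3 and pGIPZ-NC replicate 3. The log2 fold change was 0.28 (SE 0.28, adjusted p 0.480 by edgeR), and its 95% interval from -0.29 to 0.86 held both no change and a rise as large as that of BTG2.

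SESN1 and TP53I3 act in metabolic and oxidative stress. SESN1 encodes sestrin 1, which restrains growth signalling through mTORC1, and TP53I3 encodes a quinone oxidoreductase. SESN1 (chromosome 6, 109305512 to 109416049, minus strand, GRCh37) had 173, 173 and 174 counts in pGIPZ-NC and 210, 149 and 174 counts in shUSP39 for replicates 1, 2 and 3. The shUSP39 libraries lay on both sides of the pGIPZ-NC libraries. The log2 fold change was 0.04 (SE 0.17, 95% interval -0.31 to 0.39, adjusted p 0.901 by edgeR), and it turned to -0.07 without shUSP39 replicate 1 and to -0.0092 without pGIPZ-NC replicate 2. TP53I3 (chromosome 2, 24300303 to 24307704, minus strand, GRCh37) had 154, 129 and 150 counts in pGIPZ-NC and 161, 166 and 134 counts in shUSP39 for the same replicates. These ranges overlapped as well. Its log2 fold change was 0.09 (SE 0.18, 95% interval -0.29 to 0.46, adjusted p 0.760 by edgeR) and turned to -0.026 without pGIPZ-NC replicate 2.

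RRM2B encodes the p53-inducible small subunit of ribonucleotide reductase, which supplies deoxynucleotides for DNA repair. The gene lies on chromosome 8 and had 163, 124 and 124 counts in pGIPZ-NC and 126, 138 and 130 counts in shUSP39 for replicates 1, 2 and 3. All 3 shUSP39 libraries lay within the pGIPZ-NC range. The log2 fold change was -0.05 (SE 0.19, 95% interval -0.44 to 0.34, adjusted p 0.865 by edgeR) and turned to 0.06 without pGIPZ-NC replicate 1. In SESN1, RRM2B and TP53I3 the upper ends of these intervals lay below the log2 fold change of BTG2 (0.57). The 95% interval of BTG2 itself ran from 0.40 to 0.73 and held the upper end of TP53I3. Differences between genes were not tested.

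**Figure D3:**
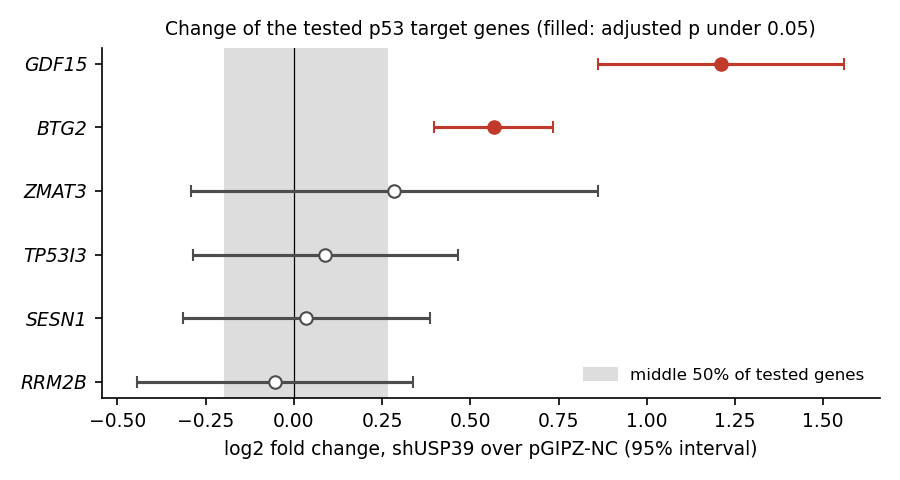
Log2 fold change of shUSP39 over pGIPZ-NC (horizontal axis) of the 6 tested p53 target genes with 95% intervals. Filled points passed an adjusted p of 0.05, and the grey band holds the middle part of all tested genes: GDF15 (1.21) and BTG2 (0.57) lie to the right of the band with their whole intervals, ZMAT3 (0.28) lies just past its edge, and the intervals of ZMAT3 and the other 3 genes include 0.

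CDKN1A and TP53INP1 could not be compared. CDKN1A (GRCh37 chromosome 6, 36646491 to 36655109, plus strand) encodes p21, the main effector of the p53 cell cycle arrest. It had 8, 0 and 0 counts in pGIPZ-NC and 0, 3 and 4 counts in shUSP39 for replicates 1, 2 and 3. TP53INP1, on chromosome 8, encodes a nuclear protein that promotes cell death and autophagy. It had 1, 0 and 7 counts in pGIPZ-NC and 4, 0 and 0 counts in shUSP39. Each gene had no count in at least 1 library of either group, so a change in either was not detectable with these counts.

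These low counts have to be read beside the way transcripts were counted, since the values are given per RefSeq transcript and genes with several transcripts tended to have fewer counts. In genes with 1 RefSeq messenger RNA the upper quartile of the mean count per library was 2834, and it was 572 with 2, 267 with 3 or 4, 199.7 with 5 to 9 and 287 with 10 or more. RefSeq lists 10 messenger RNAs for CDKN1A, of which 2 were read here, and 2 for TP53INP1, of which 1 was read here. Low expression and reads left out because several transcripts share them cannot be told apart for these genes. GDF15 and BTG2 have 1 RefSeq messenger RNA each, and the other 4 tested genes have 3 to 8. Of all tested genes, 23.1% of those with 1 RefSeq messenger RNA and 11.7% of those with more were called higher. Of tested genes with a mean count from 50 to 200, which holds GDF15 and each of the 4 genes that did not pass, 22.2% passed in either direction.

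**Figure D4:**
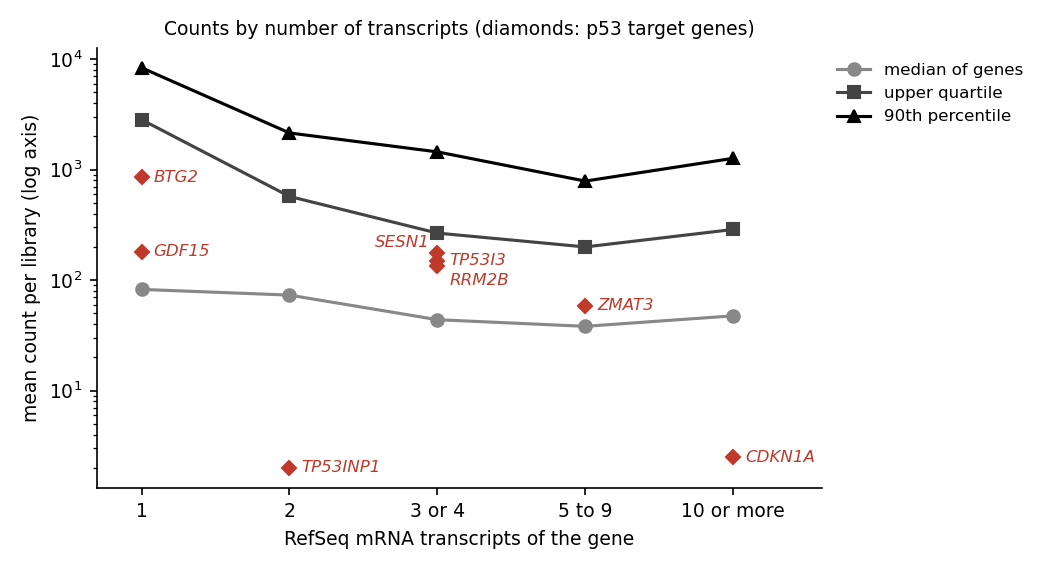
Mean count per library (vertical axis, log scale) by the number of RefSeq messenger RNAs of a gene. Lines give the median, upper quartile and 90th percentile of genes and diamonds the 8 p53 target genes: the upper quartile falls from 2834 with 1 transcript to 199.7 with 5 to 9, and CDKN1A and TP53INP1 lie far below the medians.

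Transcripts were then compared one by one, because USP39 is a splicing protein. RRM2B had 2 transcripts. NM_001172477.1 had 34, 19 and 26 counts in pGIPZ-NC and 38, 41 and 34 in shUSP39, and NM_015713.4 had 129, 105 and 98 counts in pGIPZ-NC and 88, 97 and 96 in shUSP39. The first transcript had 34 counts in both pGIPZ-NC replicate 1 and shUSP39 replicate 3, and neither transcript passed the test. The log2 fold changes were 0.52 (SE 0.38) and -0.23 (SE 0.21), with adjusted p-values of 0.351 and 0.468 over 12553 transcripts in edgeR's quasi-likelihood test. In edgeR's test of transcript usage the proportions in RRM2B had an adjusted p of 0.407 (unadjusted p 0.0855). The 2 tested transcripts of ZMAT3 had log2 fold changes of 0.40 and 0.16, and those of SESN1 of -0.07 and 0.04. Their usage had adjusted p-values of 0.882 and 0.960. None of the 3 genes passed by edgeR, at an adjusted or an unadjusted p under 0.05, where 3.69% of 1628 genes passed the adjusted p.

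Other genes of the p53 network were examined to see whether the rise of GDF15 and BTG2 was shared. Of 47 other genes that p53 is known to activate, 38 were tested, and 10 rose and 4 fell at an adjusted p under 0.05 by edgeR, while 24 did not pass. The passing share was 36.8%, beside 33.6% of all tested genes (16.1% higher and 17.5% lower), and the median log2 fold change was -0.04. Of those that passed, 3 were more than 2-fold higher and 2 more than 2-fold lower, and the 4 with the largest change are given first. PMAIP1, which encodes the BH3-only death protein NOXA, rose from 4, 2 and 4 counts in pGIPZ-NC to 73, 55 and 57 counts in shUSP39, a rise of 4.16 on the log2 scale (SE 0.50, adjusted p 1.96e-07 by edgeR). TP53I11 rose from 1, 0 and 4 counts to 19, 22 and 23 counts. PMAIP1 and TP53I11 passed the filter only through shUSP39, where they were high, so the count of higher genes rests partly on them. With at least 10 counts required in every library 32 genes of the list were tested, and 8 rose and 4 fell. PLK2, a polo-like kinase, fell from 131, 167 and 63 counts to 5, 7 and 7 counts, a log2 change of -4.19 (SE 0.39, adjusted p 2.45e-09 by edgeR). PLK2 passed the filter only through pGIPZ-NC, where it was high, so the count of lower genes rests partly on it. With at least 10 counts required in every library PLK2 was not tested, so the 4 that fell there do not include it. PERP, a membrane protein of desmosomes and p53-dependent death, fell from a mean of 20.4 ± 1.98 CPM to 2.44 ± 0.0675 CPM (SD, n = 3 each), a log2 change of -3.06 (SE 0.14, adjusted p 1.23e-15 by edgeR). The libraries of the groups did not overlap in these 4 genes. Over the 38 genes of the list they did not overlap in 13 that were higher and 9 that were lower, beside 44.2% of all tested genes in either direction.

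Further genes of that list were chosen after their values were seen. SESN2, the paralog of SESN1, rose from 45.9 ± 1.90 to 90.5 ± 1.16 CPM (SD, n = 3 each), a log2 change of 0.98 (SE 0.06, adjusted p 4.71e-13 by edgeR). GADD45A, a DNA damage and growth arrest gene, was the fifth beyond 2-fold and rose from 168, 216 and 162 counts to 364, 383 and 357 counts, a log2 change of 1.02 (SE 0.14, adjusted p 1.44e-06 by edgeR). BAX and DDB2, a death protein and a DNA repair protein, had log2 fold changes of 0.19 and -0.03 and did not pass (adjusted p 0.0909 and 0.899 by edgeR).

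No tested gene that controls p53 passed with a change beyond 2-fold, and 6 of the 7 that passed the adjusted p were lower. Of 24 listed genes 15 were tested, and 1 rose and 6 fell at an adjusted p under 0.05 by edgeR, while 8 did not pass. The passing share was 46.7%, beside 33.6% of all tested genes (16.1% higher and 17.5% lower), and the median log2 fold change was -0.15. Under upper-quartile scaling 4 fell and 1 rose. The largest changes were in CDKN2A, the gene of p16 and the MDM2 inhibitor ARF, at -0.64 (SE 0.14, adjusted p 0.000746), and in PML, the organiser of PML nuclear bodies, at 0.53 (SE 0.14, adjusted p 0.00396). CREBBP, a histone acetyltransferase and p53 coactivator, had -0.36 (SE 0.13, adjusted p 0.0287) and HUWE1, a ubiquitin ligase of p53, had -0.28 (SE 0.03, adjusted p 2.97e-08). PPM1D, the phosphatase that switches p53 signalling off and a p53 target itself, did not pass, at -0.15 (SE 0.06, adjusted p 0.0675 by edgeR). MDM4 was not analysed here. With shUSP39 replicate 1 alone, fewer genes of this list and fewer of all tested genes passed.

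Most of the cell cycle genes that lie downstream of p21 and DREAM did not pass, and those that passed were lower by small amounts. Of 34 listed genes 26 were tested, and 8 fell and 0 rose at an adjusted p under 0.05 by edgeR (0 rose by DESeq2, by limma-voom or at an unadjusted p under 0.05 by edgeR), while 18 did not pass. The passing share was 30.8%, all of it lower, beside 33.6% of all tested genes in either direction and 17.5% lower. The median log2 fold change was -0.07. TOP2A, the topoisomerase of dividing cells, had the largest fall at -0.37 (SE 0.04, adjusted p 3.29e-07), from 1142 ± 80.8 to 885 ± 35.0 CPM (SD, n = 3 each). MCM6, a subunit of the replicative helicase, had -0.31 (SE 0.03, adjusted p 2.64e-08), RRM2, the S-phase paralog of RRM2B, had -0.29 (SE 0.11, adjusted p 0.0464) and MCM3 had -0.24 (SE 0.07, adjusted p 0.00835). Without pGIPZ-NC replicate 2 the number that passed was 4, without pGIPZ-NC replicate 1 it was 6 lower and 1 higher, and under upper-quartile scaling 5 fell and 1 rose.

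GDF15 and SESN2 are also known targets of the integrated stress response, in which the factor ATF4 raises genes of amino acid supply and stress recovery. Of 16 listed genes of that response 10 were tested, and 7 rose and 1 fell at an adjusted p under 0.05 by edgeR, beside 16.1% of all tested genes higher and 17.5% lower. The median over the 10 genes was 0.41 on the log2 scale. On the log2 scale ASNS, asparagine synthetase, rose by 1.47 (SE 0.44, adjusted p 0.0105), PPP1R15A, a phosphatase subunit that ends the response, 1.12 (SE 0.05, adjusted p 2.63e-15) and CHAC1, a glutathione-degrading enzyme, 1.12 (SE 0.16, adjusted p 3.21e-06). The other passing genes were TRIB3 (0.92), ATF5 and DDIT4 (0.26 each), PHGDH (0.13) and PSAT1 (-0.25), named after their values were seen. ATF4 itself had a log2 fold change of 0.01 (adjusted p 0.936 by edgeR). With shUSP39 replicate 1 alone fewer genes of this list passed, as did fewer of all tested genes. The part of this response in the rise of GDF15 was not tested.

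Interferon-stimulated genes rose in the same libraries. Their rise in these data was known when they were listed, so the counts describe it and do not test it. Of 16 listed genes 14 were tested, and 12 rose and 0 fell at an adjusted p under 0.05 by edgeR (0 fell by DESeq2, by limma-voom or at an unadjusted p under 0.05 by edgeR), beside 16.1% of all tested genes higher and 17.5% lower. Several of these genes passed the filter only through shUSP39, where they were high, so that the count and the median of 2.88 rest partly on them. RSAD2, which encodes an antiviral protein, had 4, 0 and 0 counts in pGIPZ-NC and 486, 571 and 536 in shUSP39, OAS2 had 5, 1 and 2 against 343, 352 and 202, and IFI44 had 4, 0 and 0 against 113, 107 and 78. OASL had 14, 12 and 26 counts against 1096, 1082 and 1029. With at least 10 counts required in every library 8 genes were tested and 7 rose. PMAIP1 and PML are known to respond to interferon as well as to p53, and the part of interferon in their rise was not tested.

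**Figure D5:**
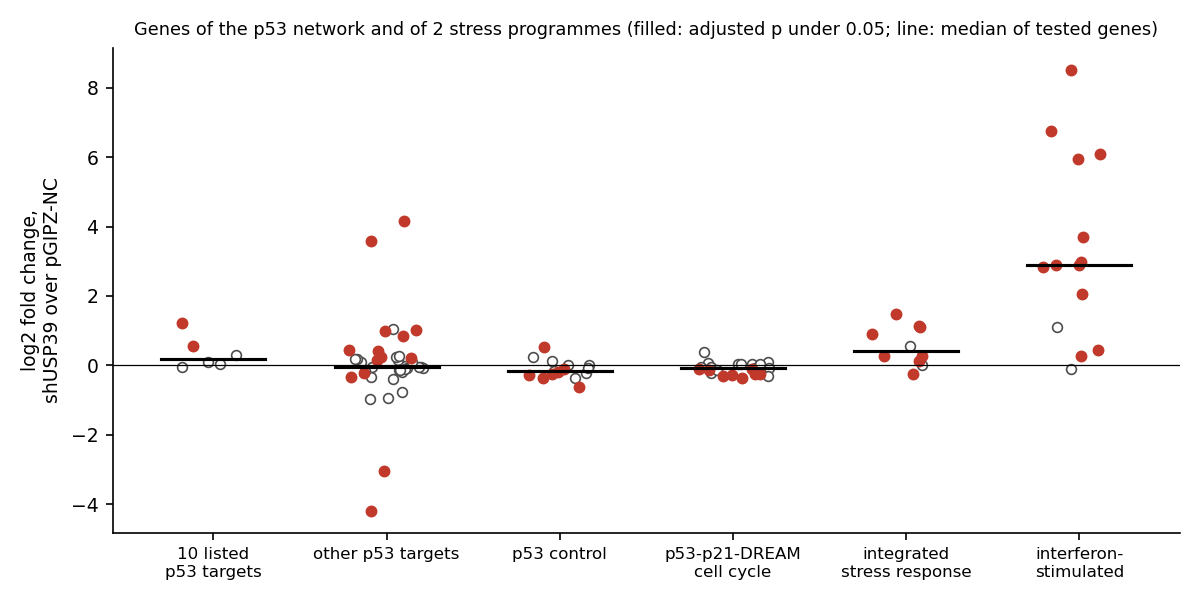
Log2 fold change of shUSP39 over pGIPZ-NC (vertical axis) of each tested gene in 6 lists, with filled points for an adjusted p under 0.05 and a line at the median of the tested genes. The medians are 0.19 in the listed p53 targets, -0.04 in other p53 targets, -0.15 in p53 control genes, -0.07 in p53-p21-DREAM genes, 0.41 in the integrated stress response and 2.88 in interferon-stimulated genes.

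The identity of the cells was checked with markers, since groups that differ in cell state could differ in these genes too. Of 11 serous ovarian markers read here, PAX8, EPCAM, MSLN, WFDC2, ESR1 and SOX17 had at most 6 counts in any library. The summed level of the 11 markers was between 47.2 and 49.6 CPM in pGIPZ-NC and between 34.7 and 41.3 CPM in shUSP39. Within this sum the keratin genes moved apart. KRT19 fell from 821, 836 and 616 counts to 62, 68 and 51, KRT8 fell from 28, 37 and 26 counts to 3, 0 and 0, and KRT18 rose from 711, 676 and 676 counts to 1017, 932 and 1075. MUC16, under the filter, had 5, 1 and 1 counts in pGIPZ-NC and 6, 150 and 71 counts in shUSP39, with the high values in the 2 libraries with the most detected genes. The 6 fibroblast markers were led by the collagens COL3A1 and COL1A2. Their sum was between 2557 and 2672 CPM in pGIPZ-NC and between 1237 and 1303 CPM in shUSP39. Of the 6, 4 fell at an adjusted p under 0.05 by edgeR, beside 17.5% of all tested genes. DCN and LUM, among these 4, were low in shUSP39 and passed the filter through pGIPZ-NC, so that count rests partly on them. The 5 leukocyte markers summed to between 9.45 and 12.2 CPM over all libraries, with PTPRC, CD3E and CD14 at 7 counts or fewer. The 5 endothelial markers summed to at most 2.06 CPM. The part of these differences in the rise of GDF15 and BTG2 was not tested.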

How the data were processed

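The authors deposited unnormalised counts, with a row for each RefSeq transcript and a column for each library. The counter and annotation are not given in the sources used here. The submitters' processing notes name HISAT2, Cufflinks and the build hg19. Deposited columns of group means, fold change, p-value and q-value were not used. Groups and replicate numbers came from the sample titles, and the study calls the samples of a group biologically independent, without saying how they were kept apart.

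The 21368 rows were summed to 16571 symbols, after 46 symbols in the form of a date were replaced through their accession. RefSeq transcript numbers (GRCh38.p14) were matched for 15713 symbols. Low counts were removed with filterByExpr and the rest were TMM-scaled and tested with edgeR 4.0.16 in R 4.3.3 (robust quasi-likelihood, group as the only term, Benjamini-Hochberg adjustment). A 2-fold limit came from the study's methods. SE is the absolute log2 fold change divided by the square root of F, and 95% intervals use the test's degrees of freedom. Transcript usage was tested with diffSpliceDGE. The fit was tested on simulated data of 10695 genes for shUSP39 against pGIPZ-NC, of which 200 were changed and all had the same dispersion. There 89% of genes changed 2-fold and 95% of genes changed 3-fold were recovered, with 12 false calls. The simulation does not cover smaller changes, many changed genes or genes that differ in dispersion.

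Sites were searched in 95.3% of the tested genes. The files hold no coordinates, and those printed are from GENCODE on GRCh37.

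The genes and lists were chosen with earlier results of these data known. All 10 genes are named. In the other lists, genes past the adjusted p and 2-fold were named, at most the 4 with the largest change, with MDM4 and PPM1D in any case. Where none was past 2-fold, the 4 with the largest change past the adjusted p were named after their values were seen. An item of the p53 control list is not reported here. Alternatives were DESeq2 1.42.0 size factors and Wald test, scaling by the upper quartile or by library size alone, testing without the filter or with 10 or more counts required in all libraries, limma-voom (limma 3.58.1), the replicate block, each library left out, shUSP39 replicate 1 alone and the highest transcript of each gene.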

Additional observations from a re-analysis of the deposited data

How the results depend on the processing

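GDF15 and BTG2 kept their rise and their side of the threshold in 16 of 16 alternatives each, with log2 fold changes from 1.09 to 1.32 (adjusted p from 6.27e-10 to 0.000531) and from 0.53 to 0.61 (adjusted p from 6.16e-10 to 0.00108). ZMAT3, SESN1, RRM2B and TP53I3 passed in 0 of 16. When each library was left out in turn, SESN1 ran from -0.072 to 0.14, RRM2B from -0.16 to 0.060 and TP53I3 from -0.026 to 0.18. The number of p53-p21-DREAM genes that passed was 8, 5 with library size only, and from 4 to 7 with one library left out. With shUSP39 replicate 1 alone, the spread is that of pGIPZ-NC and the lone library is assumed to vary like it. In that fit fewer p53 control genes, fewer integrated stress response genes and fewer of all tested genes passed. With at least 10 counts in every library, 7 interferon-stimulated genes passed, since fewer of them were tested. The cause of the other differences was not tested. Sites were found in 1 gene with no mismatch, in 5 with at most 2 mismatches and in 0 with at most 1 mismatch within 1000 bases, which follows from how the searches were built. Upper-quartile scaling made 58.0% of passing genes higher (48.0% with TMM). Testing without the filter moved the all-gene median to 0.12. Same-numbered libraries had correlations of deviations of 0.0688, 0.0048 and 0.0216. Replicate 1 of shUSP39 correlated best with pGIPZ-NC replicate 1, and shUSP39 replicates 2 and 3 each with a pGIPZ-NC library of another number. These small values do not settle whether same-numbered libraries were paired. Over all tested genes 3981 passed with the replicate block and 3598 without it. With the replicate block 2 of the 6 genes passed, GDF15 with a log2 fold change of 1.22 and BTG2 with 0.57, and 14 other p53 targets, 9 p53 control genes, 9 p53-p21-DREAM genes, 8 stress response genes and 13 interferon-stimulated genes passed. Low counts left CDKN1A and TP53INP1 untested, and intervals cover the spread between 3 libraries a group.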
